A study of Mus musculus with 6 samples.

Results

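Bidirectional promoters, the short stretches from which a pair of neighbouring protein-coding genes is transcribed in opposite directions, were examined for open chromatin in nuclei of newborn mouse hearts. A pair was taken as 2 protein-coding genes of GENCODE M21 on opposite strands, reading away from each other, whose annotated gene starts (transcription start sites, TSSs) lie at most 1000 bp apart on GRCm38, the assembly also called mm10. There were 755 such pairs, which hold 1489 of 21938 protein-coding genes (6.79%). The region scored for each pair ran from 500 bp inside the gene on the minus strand, across the span between the TSSs, to 500 bp inside the gene on the plus strand, with a median length of 1130 bp. The TSSs of a pair were between 0 and 987 bp apart, with a median of 129 bp and quartiles of 66.5 and 240 bp. There were 21 genes in more than 1 pair, and the regions merged into 734 separate stretches. Unidirectional promoters, used for comparison, were 500 bp to either side of the TSS of 17892 protein-coding genes with no gene of any kind starting on the opposite strand within 1000 bp. A second comparison used 876 protein-coding genes whose divergent partner is not protein-coding. That partner is called noncoding here and can be a gene of any other annotated type.

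A promoter is kept clear of nucleosomes where transcription factors and RNA polymerase II assemble, and a transposase can cut there. Many mammalian promoters start transcription in both directions, but the upstream transcript is usually short and unstable. In a bidirectional promoter of a gene pair both transcripts are stable messenger RNAs, and such pairs are known to be rich in CpG islands and in genes of basic cell functions such as DNA repair, translation and mitochondrial metabolism.

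Omni-ATAC-Seq, a version of the transposase assay for open chromatin, used 50000 nuclei of postnatal day 1 mouse hearts for each library, in 3 groups of 2 independent biological replicates. Input held nuclei of WT hearts from a 2.2 M sucrose cushion, Myc held nuclei of Nkx2-5 Cre/+; R26RSun1-Myc-Egfp/+ hearts pulled down with a Myc antibody after the cushion, and PCM1 held nuclei of WT hearts pulled down with a PCM1 antibody after the cushion. Nkx2-5 Cre acts in cardiac progenitors that give rise to cardiomyocytes (CMs) and also to smooth muscle and endothelial cells, and the study chose the dense cushion to keep mainly CM nuclei in all groups. PCM1 is a protein at the nuclear envelope of CMs. The data are 1 list of MACS2 peaks per library, with 75336 to 131500 peaks, and no read counts were used. The depth of a library, read from the background that MACS2 recorded, was 4.38 times that of the shallowest library (PCM1 replicate 2) in Input replicate 1, 1.13 times in Input replicate 2, 1.60 and 1.59 times in Myc and 1.08 times in PCM1 replicate 1. Both PCM1 libraries, labelled WT, had peaks in coding exons of Sun1, with 3 and 7 summits against 4 and 4 in Myc and 0 and 0 in Input, which goes against that label. The contrasts and group counts were therefore also computed without them. CM markers were open within 500 bp of the TSS in all 6 libraries for 5 of 6 genes (not Tnni3). Markers of other cells were open as well, in 1 to 3 of 4 fibroblast genes (Pdgfra in no library), 3 to 4 of 4 endothelial genes and 2 to 3 of 3 epicardial genes per library. In such a mixture, fewer nuclei with an open site and less opening per nucleus cannot be told apart.

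The sequences between the annotated TSSs show how short and how different these stretches are. Each is the plus strand of GRCm38 from 15 bases left of the TSS of the minus-strand gene to 15 bases right of the TSS of the plus-strand gene, and capitals mark the bases from the first TSS to the last. The first 3 are a chaperone pair and 2 mitochondrial pairs with a peak in every library, the fourth joins a pair of histone genes, the fifth had no peak in either PCM1 library, and the last 2 had no peak in any library. By annotation they are stretches of promoter with the starts of the first exons, and the gene to the left reads leftwards. For the last 2, the principal starts of Rps2 and Rab3il1 lay 1994 and 16524 bp away and had a peak in all 6 libraries.
Hspa14/Cdnf, chr2:3512799-3513045: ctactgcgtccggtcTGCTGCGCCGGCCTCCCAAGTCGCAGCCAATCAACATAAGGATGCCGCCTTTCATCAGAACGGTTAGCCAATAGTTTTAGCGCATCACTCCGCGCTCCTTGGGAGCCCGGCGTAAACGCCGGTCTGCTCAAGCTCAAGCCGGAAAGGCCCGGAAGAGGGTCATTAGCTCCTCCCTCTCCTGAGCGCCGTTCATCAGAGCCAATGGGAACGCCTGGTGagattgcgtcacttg
Mrps12/Sars2, chr7:28741805-28742007: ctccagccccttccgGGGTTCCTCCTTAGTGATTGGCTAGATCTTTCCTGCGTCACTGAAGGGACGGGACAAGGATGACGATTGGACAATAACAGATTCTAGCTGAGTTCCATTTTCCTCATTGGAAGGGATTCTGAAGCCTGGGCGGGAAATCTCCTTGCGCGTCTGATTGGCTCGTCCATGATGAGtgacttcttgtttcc
Hadha/Hadhb, chr5:30155147-30155263: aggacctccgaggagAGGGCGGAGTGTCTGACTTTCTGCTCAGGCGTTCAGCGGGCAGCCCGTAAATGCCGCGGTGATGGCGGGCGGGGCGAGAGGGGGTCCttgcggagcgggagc
Hist1h2ac/Hist1h2bc, chr13:23683933-23684214: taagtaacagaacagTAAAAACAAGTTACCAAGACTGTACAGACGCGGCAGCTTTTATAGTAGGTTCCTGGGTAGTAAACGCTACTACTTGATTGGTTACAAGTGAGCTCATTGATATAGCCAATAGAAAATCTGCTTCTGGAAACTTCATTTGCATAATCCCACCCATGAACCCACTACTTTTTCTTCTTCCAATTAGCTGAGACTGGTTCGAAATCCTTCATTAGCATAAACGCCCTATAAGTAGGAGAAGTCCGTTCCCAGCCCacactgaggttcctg
Cd3eap/Ppp1r13l, chr7:19359468-19359764: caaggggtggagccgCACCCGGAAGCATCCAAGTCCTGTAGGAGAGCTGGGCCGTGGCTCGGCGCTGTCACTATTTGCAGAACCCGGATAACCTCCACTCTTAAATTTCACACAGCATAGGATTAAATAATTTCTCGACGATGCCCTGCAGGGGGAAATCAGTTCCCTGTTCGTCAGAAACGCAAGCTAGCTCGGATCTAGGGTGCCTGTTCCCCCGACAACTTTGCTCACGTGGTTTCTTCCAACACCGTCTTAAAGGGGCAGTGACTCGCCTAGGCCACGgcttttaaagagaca
Rnf151/Rps2, chr17:24718048-24718131: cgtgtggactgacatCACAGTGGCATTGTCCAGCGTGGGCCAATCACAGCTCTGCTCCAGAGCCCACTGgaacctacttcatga
Best1/Rab3il1, chr19:10001618-10001684: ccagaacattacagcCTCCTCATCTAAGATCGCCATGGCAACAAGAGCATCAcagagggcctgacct
Hspa14 encodes a chaperone of the Hsp70 family and Cdnf a neurotrophic factor of the endoplasmic reticulum, 216 bp apart. Mrps12 encodes a protein of the mitochondrial ribosome and Sars2 the mitochondrial seryl-tRNA synthetase, 172 bp apart. Hadha and Hadhb encode both subunits of the mitochondrial trifunctional protein of fatty acid oxidation and start 86 bp apart. The Hadha/Hadhb stretch, with 12 CpG dinucleotides and 69.2% G and C in 117 bases, contrasts with the Best1/Rab3il1 stretch, with 1 CpG and 52.2% in 67 bases.

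Nearly every bidirectional promoter was open in these heart nuclei, whichever way the nuclei were isolated. Of the 755 pairs, 96.0 and 94.2% overlapped a peak in Input, beside 95.2 and 95.1% for the Myc libraries and 94.3 and 93.9% for the PCM1 libraries. Over all protein-coding genes the share with a peak within 500 bp of the TSS was 63.4 and 57.5% (Input), 61 and 60.9% (Myc) and 57.6 and 57.4% (PCM1). The pairs therefore stood at 94.8% ± 0.802 (SD, n = 6 libraries) and unidirectional promoters at 53.1% ± 2.66, a difference of 41.7 percentage points ± 1.87 that lay between 38.9 and 43.4 points in every library. A two-sided exact permutation test that flips the sign of the difference within each of the 6 libraries gave p = 0.03125, the smallest that 6 libraries allow, and 0.03125 after Benjamini-Hochberg adjustment over the 9 contrasts tested. Libraries, not promoters, were the replicates of this test. Input was an aliquot of cushion nuclei of which the rest went to the pull-down, so libraries of different groups may not be fully independent. By label Input and PCM1 are both WT and could share hearts, while Myc has another genotype. The Sun1 peaks put the PCM1 label in doubt, so PCM1 could share hearts with Myc instead. Without both PCM1 libraries the difference was 41.0 points, and 4 libraries cannot give an exact permutation p below 0.125.

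The open state was also shared between libraries. All 6 libraries had a peak at 702 pairs (93.0%), beside 53.8% of all protein-coding promoters and 46.8% of unidirectional ones. Without both PCM1 libraries 709 pairs (93.9%) had a peak in the 4 libraries left, beside 56.3% of all protein-coding promoters. No library had a peak at 29 pairs (3.84%), beside 34.7% of all protein-coding promoters and 40.7% of unidirectional ones. The remaining 24 pairs had a peak in 1 to 5 libraries. Genes with a noncoding divergent partner lay in between, with 81.6% ± 2.34 open (SD, n = 6), 76.7% open in all 6 libraries and 13.6% in none. The pairs exceeded them by 13.2 points ± 1.56 in 6 of 6 libraries (two-sided exact permutation test, p = 0.03125, adjusted p = 0.03125).

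**Figure D1:**
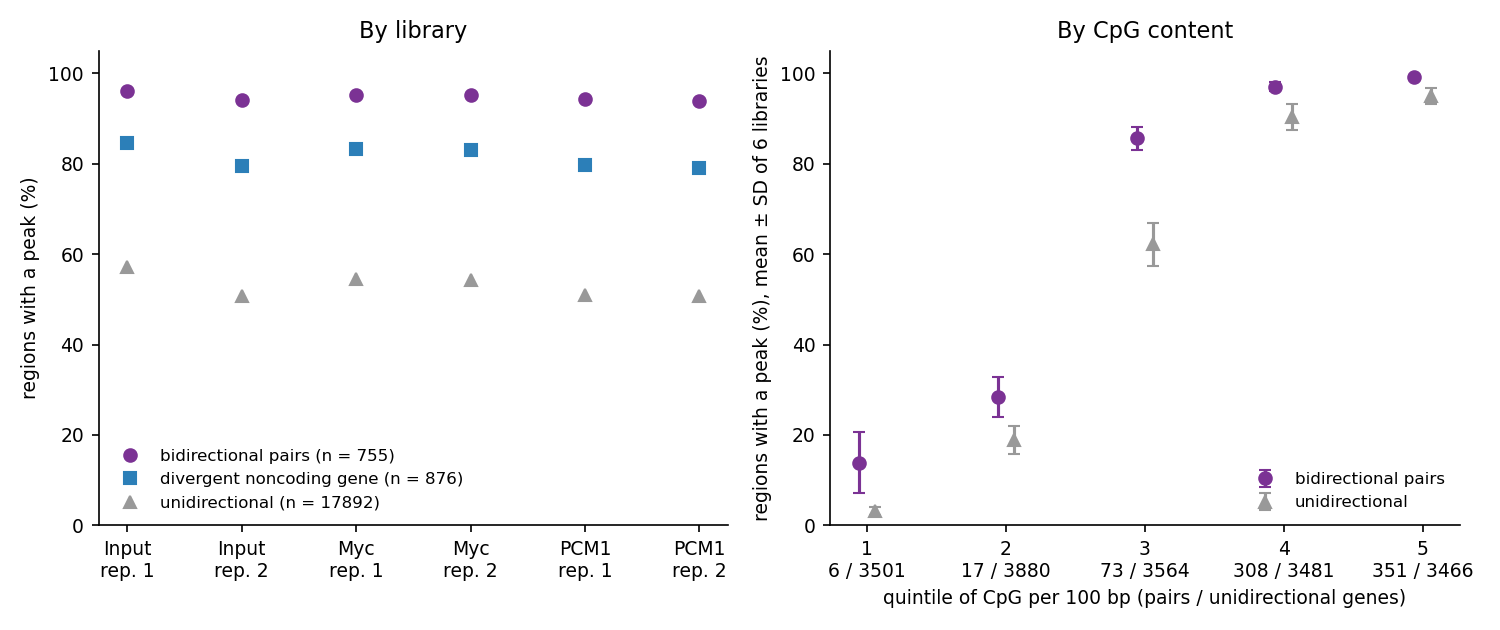
Percent of promoter regions that overlap a peak. The left panel gives each of the 6 libraries for bidirectional pairs, protein-coding genes with a divergent noncoding gene and unidirectional promoters, and the right panel gives the mean ± SD of the 6 libraries by quintile of CpG density. Pairs lie between 93.9 and 96.0% in every library, above unidirectional promoters at 50.7 to 57.1%. In percentage points the distance between the classes is small in the fourth and highest quintiles. Unidirectional promoters reach 90.3 and 94.98% there, which leaves little room for a difference.

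Most of this distance went with sequence composition. The pairs held a median of 6.79 CpG dinucleotides per 100 bp (quartiles 5.49 and 8.49) in the 1 kb around their midpoint, against 2.997 around unidirectional TSSs and 6.49 at genes with a divergent noncoding gene. Taking more than 50% G and C and an observed-to-expected CpG ratio over 0.6 as the mark of a CpG island, 83.3% of pairs and 37.0% of unidirectional promoters met it. Within quintiles of CpG density, weighted by the number of pairs, 97.0% ± 0.718 of pairs and 89.7% ± 2.51 of unidirectional promoters had a peak, a difference of 7.27 points ± 1.81 (SD, n = 6), present in 6 of 6 libraries (two-sided exact permutation test, p = 0.03125, adjusted p = 0.03125). The size of this difference moved with depth, from 5.02 points in the deep Input replicate 1 to 8.76 points in Input replicate 2 and 9.03 and 8.90 points in PCM1, and the part of depth in it was not tested.

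In percentage points the difference was largest where CpG was intermediate. In the middle quintile, 85.6% ± 2.56 of 73 pairs and 62.2% ± 4.79 of 3564 unidirectional promoters were open, 23.4 points apart. In the fourth quintile 97.1% of 308 pairs and 90.3% of unidirectional promoters were open, and in the highest quintile 99.3% of 351 pairs and 94.98% of unidirectional promoters were. Where most unidirectional promoters are open, little room is left for a difference in points. Relative differences in the closed share were not computed. The 2 lowest quintiles held only 6 and 17 pairs, too few to enter the comparison. Pairs without a peak were poor in CpG, with a median of 1.80 per 100 bp, against 4.65 for pairs with a peak in 1 to 5 libraries and 6.99 for pairs with a peak in all 6.

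The peaks at bidirectional promoters were also stronger and longer than those at unidirectional promoters that had a peak. Strength is given as a rank percentile, the rank of a peak by the authors' −log10 q-value among all peaks of its own library, with 100 the highest. The median pair stood at 96.2 and 93.4 (Input), 96.5 and 96.6 (Myc) and 93.1 and 92.7 (PCM1), and the median unidirectional promoter with a peak at 87.9 ± 3.22 (SD, n = 6). The difference of 6.85 percentile points ± 1.37 became 4.68 ± 1.19 within quintiles of CpG density, and both were positive in 6 of 6 libraries (two-sided exact permutation tests, p = 0.03125, adjusted p = 0.03125). The strongest peak of a pair had a median length of 826 bp ± 65.3 and that of a unidirectional promoter 713 bp ± 61.5. The difference in length was 113 bp ± 4.59 with a range of 107.5 to 120 bp over the libraries (two-sided exact permutation test, p = 0.03125, adjusted p = 0.03125), and 52.2 bp ± 5.39 within quintiles of CpG density, a comparison added after the data were seen.

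In most pairs 1 stretch of open chromatin spanned both gene starts. A single peak covered both TSSs in 90.4 to 93.2% of the pairs with a peak, with a mean of 91.9% ± 1.13 over the libraries. At unidirectional promoters with a peak, the peak covered the TSS in 87.1% ± 1.05. The median TSS distance of 129 bp is short beside the median peak of 826 bp, and the part of length in this coverage was not tested. The summit, the point of highest signal in a peak, lay between the TSSs in 65.0% ± 2.88 of the pairs whose summit fell in the region, although the span between the TSSs made up only 15.9% ± 0.0825 of the length of those regions. The excess of 49.1 points ± 2.86 was seen in 6 of 6 libraries, from 45.3 points in PCM1 replicate 1 to 52.7 points in Myc replicate 2 (two-sided exact permutation test, p = 0.03125, adjusted p = 0.03125). Without both PCM1 libraries it was 50.7 points. Summits gather beside a TSS at unidirectional promoters too, so an excess over the share of length is not particular to pairs. When all pairs with a peak were counted, 19.2% ± 1.61 of the summits lay inside the minus-strand gene and 16.7% ± 1.52 inside the plus-strand gene.

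Summits lay near the midpoint of a pair, which in most pairs is also near both TSSs. The median summit lay 43.8 bp ± 4.46 from the midpoint of the TSSs, and 70.8% ± 1.89 of summits lay within 100 bp of it. At unidirectional promoters the median summit lay 20.8 bp upstream of the TSS (SD 1.47), and 60.1% ± 1.36 of summits were upstream. The peak of a pair reached a median of 336 bp ± 28.6 into a gene. A unidirectional peak reached 406 bp ± 42.4 into its gene and 284 bp ± 21.1 upstream. These positions do not tell a summit at the midpoint from one just upstream of either TSS, and were not tested.

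**Figure D2:**
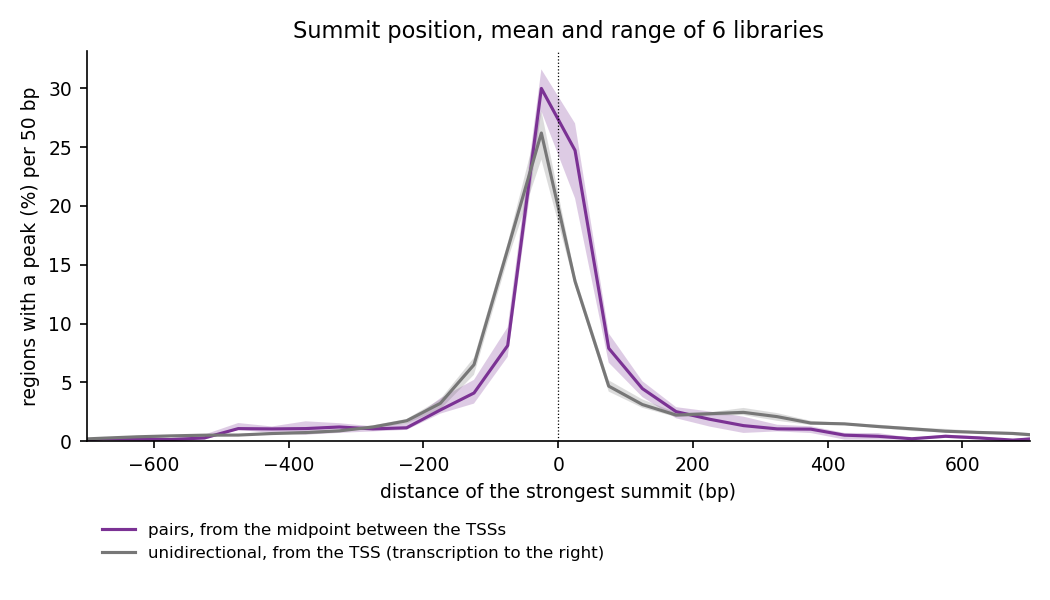
Percent of strongest summits per 50-bp bin against distance in bp, for pairs from the midpoint between the TSSs and for unidirectional promoters from the TSS with transcription to the right. Lines are means and bands the range of the 6 libraries. The pairs' profile is narrow around the midpoint, with 70.8% of summits within 100 bp, and the unidirectional profile leans upstream, with 60.1% of summits left of the TSS.

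Open chromatin was divided differently at close and at wide pairs. There were 312 pairs under 100 bp, 263 from 100 to under 250 bp, 110 from 250 to under 500 bp and 70 from 500 to 1000 bp, with a peak in all 6 libraries at 297, 242, 104 and 59 of them. In the same order, 1 peak covered both TSSs in 99.3, 94.9, 94.1 and 39.9% of the pairs with a peak. More than 1 peak was found in 4.38, 4.38, 6.65 and 24.8%. The widest class exceeded the closest by 20.4 points ± 3.20 (24.8% ± 3.48 against 4.38% ± 1.40, SD, n = 6) in 6 of 6 libraries (two-sided exact permutation test, p = 0.03125, adjusted p = 0.03125). A wider region can hold more peaks by its length alone. A peak of given length also covers both TSSs less easily when they lie further apart. The part of length in these values was not tested. Of the 70 widest pairs, 7 to 10 per library had a summit within 150 bp of both TSSs, 38 to 48 near 1 TSS, and 15 to 24 near neither. Gart/Son, a gene of purine synthesis and a gene of a splicing protein 554 bp apart, had 2 peaks in every library.

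Peaks grew longer and stronger with distance up to 500 bp and no further. The median length was 797 bp under 100 bp, 849 bp and 898 bp in the middle classes and 840.5 bp in the widest, and each step of this order had the same sign in 6 of 6 libraries. The median rank percentile rose from 92.6 to 96.3 and 97.1 and stood at 94.8 in the widest class, again with each step of 1 sign in 6 of 6 libraries. The steps were +3.76 ± 1.53, +0.747 ± 0.281 and −2.25 ± 0.506 percentile points, chosen for description after the values were seen and not tested. The widest pairs were also poorer in CpG, with a median of 4.95 per 100 bp against 6.89, 7.09 and 7.19 in the other classes. Of all pairs with a peak, 6.46% ± 1.50 had more than 1 peak, against 5.06% ± 0.750 of unidirectional promoters with a peak, a difference of 1.40 points ± 0.827 in 6 of 6 libraries (two-sided exact permutation test, p = 0.03125, adjusted p = 0.03125). That difference was 0.328 points (exact permutation p = 0.250) when the regions compared had the same length, and turned to −0.311 points (exact permutation p = 0.406) for pairs at most 500 bp apart.

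**Figure D3:**
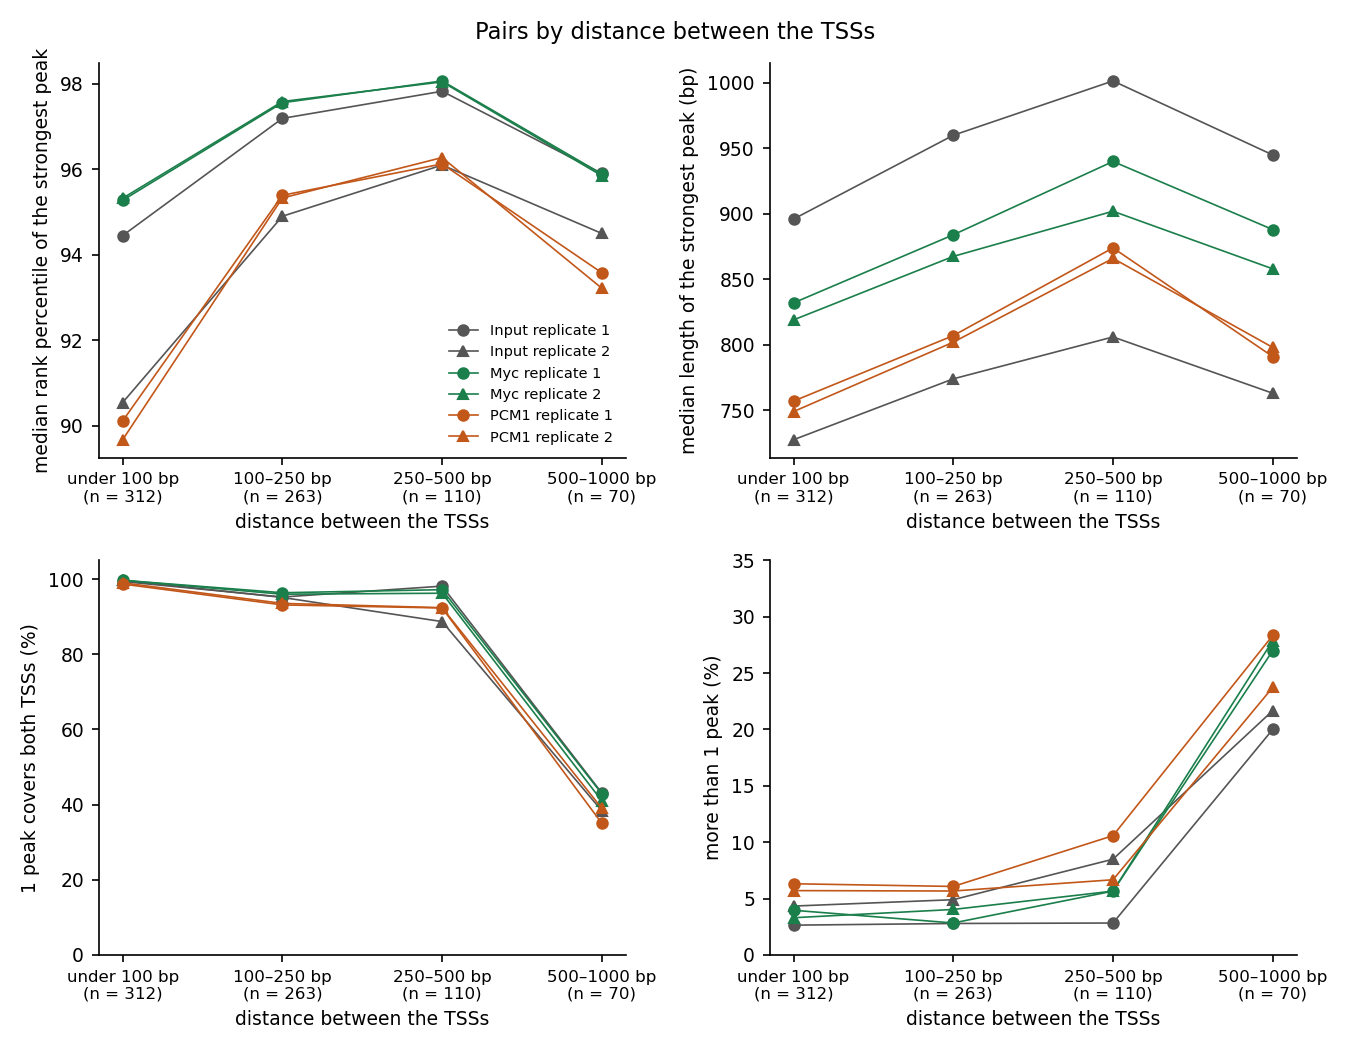
Open chromatin at pairs by the distance between their TSSs in 4 classes, with 1 line per library. The panels give the median rank percentile, the median length of the strongest peak in bp, the percent of pairs with 1 peak over both TSSs and the percent with more than 1 peak. In the widest class, 39.9% of pairs have 1 peak over both TSSs against 99.3% in the closest.

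No break was seen at the limit of 1000 bp. Of 11 pairs with TSSs 900 to 1000 bp apart, 9 had a peak in all 6 libraries and 1 in none. Of 12 pairs just outside, beyond 1000 and up to 1100 bp, 9 had a peak in all 6 libraries and 2 in none.

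DNA repair and replication genes were frequent among the pairs, and the pairs that held them were open, as most pairs were. Of 107 such genes, 30 (28.0%) were in a pair, beside 6.79% of all protein-coding genes, and all 30 pairs had a peak in all 6 libraries, beside 93.0% of all pairs and 53.8% of all promoters. Their median rank percentile, averaged over the libraries, was 96.9, beside 94.0 for all pairs. Among the 30, Rpa3/Umad1 and Rpa3/Gm45062 share the TSS of Rpa3 and are not independent. Atm/Npat, which joins the DNA damage kinase to an activator of histone genes, had ranks of 99.3 and 98.9 (Input), 99.6 and 99.8 (Myc) and 98.8 and 99.4 (PCM1). Mcm4/Prkdc, a subunit of the replicative helicase and the catalytic subunit of DNA-dependent protein kinase, stood at 97.2 and 95.4, at 99.3 and 98.9, and at 92.9 and 91.2 in the same order. The lowest was Lig4/Abhd13, with the ligase of end joining and TSSs 21 bp apart, at 74.7 and 43.3 (Input), 81.0 and 87.0 (Myc) and 38.9 and 46.5 (PCM1). Emc3/Fancd2, with a gene of the Fanconi anaemia pathway, was also weak, between 43.7 and 84.2. In both weak pairs the Myc libraries were above the other 4. The same held for 47.4% of pairs and 32.1% of all promoters with a peak in all 6 libraries.

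Mitochondrial genes were frequent in pairs too, and these pairs were all open, with a median rank near that of all pairs. Of 211 genes of the respiratory chain and the mitochondrial ribosome, 47 (22.3%) were in 46 pairs, beside 6.79% of all protein-coding genes. All 46 had a peak in all 6 libraries, beside 93.0% of all pairs, and their median rank was 93.5, beside 94.0 for all pairs. Mrps12/Sars2, whose sequence is given above, stood at 98.7 and 97.4 (Input), 99.2 and 98.8 (Myc) and 98.4 and 97.5 (PCM1). Sdhd/Timm8b, a subunit of complex II and a factor of protein import, stood between 89.1 and 96.3. The lowest mean rank of the list was that of Ndufa1/Rnf113a1, with a complex I subunit, between 37.0 in PCM1 replicate 1 and 81.8 in Input replicate 1.

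Pairs with genes of protein synthesis, folding and breakdown were open about as often as other pairs. All 5 pairs with an aminoacyl tRNA synthetase, all 8 with a proteasome gene and all 11 with a chaperone gene had a peak in all 6 libraries, beside 93.0% of all pairs. The pairs held 13.9, 16.7 and 15% of the genes of these lists, beside 6.79% of all protein-coding genes. Hspa14/Cdnf had ranks of 99.7 and 99.4 (Input), 99.6 and 99.98 (Myc) and 99.5 and 99.4 (PCM1). Of 76 cytosolic ribosomal protein genes, 8 (10.5%) were in a pair, and 6 of these 8 pairs had a peak in all 6 libraries. Zwilch/Rpl4 was weak, at 77.7 and 25.8 (Input), 76.0 and 82.2 (Myc) and 52.9 and 54.2 (PCM1). Polr3a/Rps24 lacked a peak in PCM1 replicate 2, and Rnf151/Rps2 had no peak at all.

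Histone genes, which must be made in equal amounts during S phase, were the list with the largest share in pairs of the 13 lists described. Of 67 replication-dependent histone genes, 27 (40.3%) were in 14 pairs, beside 6.79% of all protein-coding genes. Of the 14 pairs, 11 (78.6%) had a peak in all 6 libraries and 3 in none, beside 93.0 and 3.84% of all pairs. Hist1h2ac/Hist1h2bc, whose sequence is given above, stood at 96.5 and 90.0 (Input), 98.8 and 98.5 (Myc) and 95.3 and 91.3 (PCM1). Hist1h2bl/Hist1h2ai varied more, at 84.9 and 73.9, at 92.6 and 94.0, and at 36.7 and 65.1 in the same order. The pairs without a peak were Hist1h2bq/Hist1h2ao, Hist1h2ap/Hist1h2br and Hist1h2ba/Hist1h2aa. The regions of the first 2 are copies of each other, since 100% of the 50-base words of Hist1h2ap/Hist1h2br occur in Hist1h2bq/Hist1h2ao and 97.4% the other way round, and both hold 9.29 CpG per 100 bp. A read from such a stretch has no unique place in the genome, and the part of mapping in the absence of these peaks was not tested. The 8 other H2A and H2B pairs of the Hist1 cluster, all with a peak, shared 29.3 to 45.8% of their words with another pair.

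Genes of heart muscle were in pairs about as often as other genes. Of 52 heart muscle genes, 4 (7.69%) were in 3 pairs, beside 6.79% of all protein-coding genes. Hadha/Hadhb stood at 92.1 and 83.4 (Input), 94.6 and 94.3 (Myc) and 77.4 and 77.8 (PCM1). Cdc27/Myl4, a subunit of the anaphase-promoting complex and the atrial myosin light chain, stood at 92.0 and 84.2, at 92.8 and 92.9, and at 84.9 and 86.1. Klc3/Ckm, a kinesin light chain and muscle creatine kinase with TSSs 672 bp apart, had a peak only in Input replicate 1 (45.2) and Myc replicate 1 (52.8). Of 33 cardiac regulators only Foxm1, a transcription factor of proliferating cells, was in a pair, and Rhno1/Foxm1 stood between 76.9 and 89.4. Of 25 fibroblast, matrix and endothelial genes only Pecam1, an adhesion protein of endothelial cells, was in a pair, and Pecam1/Milr1 had a peak in Input replicate 1 (44.1) and in Myc (0.264 and 34.7).

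Zinc finger and collagen genes were in pairs about as often as all protein-coding genes (6.79%), and olfactory and vomeronasal receptor genes were almost absent from them. Of 365 Zfp genes 20 (5.48%) were in 18 pairs. Of the 18 pairs, 16 had a peak in all 6 libraries and 2 in none, beside 93.0 and 3.84% of all pairs. Of 44 collagen genes 2 (4.55%) formed the single pair Col4a4/Col4a3, which encodes chains of basement membrane collagen and stood between 60.6 and 79.7. Of 1466 olfactory and vomeronasal receptor genes 1 (0.0682%) was in a pair, Nt5c3/Vmn1r4. Leaving these receptor genes out of both classes, a setting added after the data were seen, lowered the difference in the share with a peak from 41.7 to 37.1 points.

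Well-known bidirectional promoters that met the rule were open, as most pairs were. Of 23 gene pairs listed from the literature of such promoters, 9 were members. All 9 had a peak in all 6 libraries, beside 93.0% of all pairs. The 9 were Atm/Npat, Mrps12/Sars2, Gart/Son, Rnf5/Agpat1, Mcm4/Prkdc, Sdhd/Timm8b, Wrn/Purg, Psmb1/Tbp and Col4a4/Col4a3, from the highest to the lowest mean rank. In 12 of the others, such as Hspd1/Hspe1 and Col4a1/Col4a2, the annotated gene records overlap at their 5′ ends by 21 to 681 bp, which the rule does not admit. Over the annotation, 456 pairs of protein-coding genes overlap in that way within 1000 bp. When the starts of principal transcripts were taken in place of gene starts, 766 pairs were found, of which 735 had a peak in all 6 libraries, and 97.2% of these pairs had a peak on average against 54.3% of unidirectional promoters.

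The highest mean ranks belonged to Hjurp/Trpm8, BC005624/Usp20, Zfp654/Cggbp1, Fbxo24/Gm20605 and Fbxo24/Lrch4, between 99.94 and 99.95. Hjurp encodes the chaperone of the centromeric histone and Trpm8 a cold-sensitive ion channel, so a pair can hold a gene of dividing cells beside a gene of sensory neurons. The pairs of Fbxo24 share 1 TSS and are not independent. The longest strongest peak belonged to Zbtb25/Zbtb1, with 2553 and 1374 bp (Input), 2484 and 1729 bp (Myc) and 1610 and 1669 bp (PCM1). The shortest belonged to Plcd3/Acbd4, between 208 and 287 bp.

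**Figure D4:**
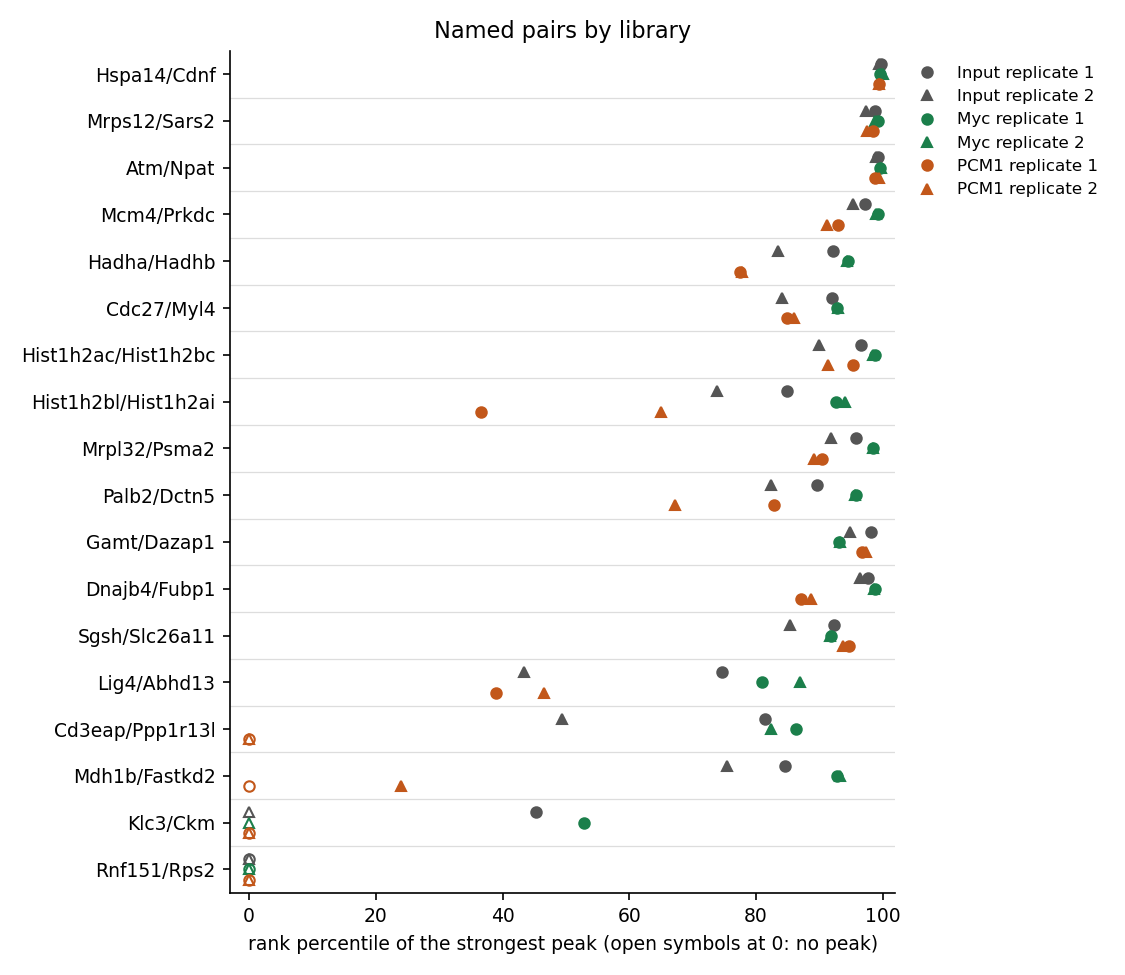
Rank percentile of the strongest peak (100 is the highest in its library) in each of the 6 libraries for 18 named pairs, with open symbols at 0 where no peak was called. Hspa14/Cdnf stays above 99 in every library, whereas Cd3eap/Ppp1r13l has no peak in PCM1 and Rnf151/Rps2 has none in any library.

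Some short sequence motifs were found in a larger share of pairs than of unidirectional promoters of like CpG content. Each motif was searched on both strands, and matches of different motifs were allowed to overlap. The window searched was the 300 bp around the midpoint of a pair or around a unidirectional TSS. The window of a pair holds sequence upstream of both its genes. A unidirectional window holds the upstream side of a single gene and as much sequence downstream of its TSS. The windows are therefore not alike in content, and the part of this in the shares was not tested. The ETS letters CCGGAAG were in 211 pairs (27.9%), against 9.21% of all unidirectional promoters and 15.7% after weighting these to the CpG quintiles of the pairs. The NFY letters CCAATCA were in 16.03% of pairs against 7.71 and 8.45%. ACTACAA, the core of the ZNF143 motif, was in 5.83% against 3.16 and 2.85%, and the YY1 letters AAGATGG were in 10.7% against 6.44 and 7.13%. The weighted shares leave out the 2 lowest CpG quintiles, whereas these shares of pairs are over all 755. In the quintiles kept, pairs stood at 28.8% for ETS, 16.1% for NFY, 6.01% for ZNF143 and 10.9% for YY1.

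For several other motifs the difference shrank or turned with the weighting. The SP1 letters GGGCGG were in 68.1% of pairs and 41.3% of unidirectional promoters, but in 74.4% of these after weighting. The TATA box letters TATAAA were in 4.37% of pairs and 11.9% of unidirectional promoters, and in 4.31% after weighting. For the NRF1 letters GCATGCGC the shares were 6.49, 2.87 and 5.28%, for the CREB letters TGACGTCA 4.37, 2.05 and 3.29%, and for the E-box CACGTG 10.7, 6.99 and 10.4%. The GATA letters AGATAA turned, with 4.90% of pairs below the 8.99% of all unidirectional promoters and above the weighted 2.87%. In the quintiles kept by the weighting, pairs stood at 69.8% for SP1, 4.37% for TATA and 6.56% for NRF1. For CREB, the E-box and GATA they stood at 4.51, 10.9 and 4.64% there. These shares are descriptions of sequence and no site was shown to be bound.

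The stretches printed above held several of them. Hspa14/Cdnf had 1 ETS and 1 NFY match, Mrps12/Sars2 had 1 ETS, 1 SP1 and 2 NFY matches, and Hadha/Hadhb had 2 SP1 matches. Hist1h2ac/Hist1h2bc had 1 NFY match and 1 TATA match. Cd3eap/Ppp1r13l had 1 ETS match and 1 E-box. Of the closed stretches, Rnf151/Rps2 had 1 NFY match and Best1/Rab3il1 none of these letters. Among all 29 closed pairs the ETS letters were in 2, NFY in 7 and SP1 in 9.

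**Figure D5:**
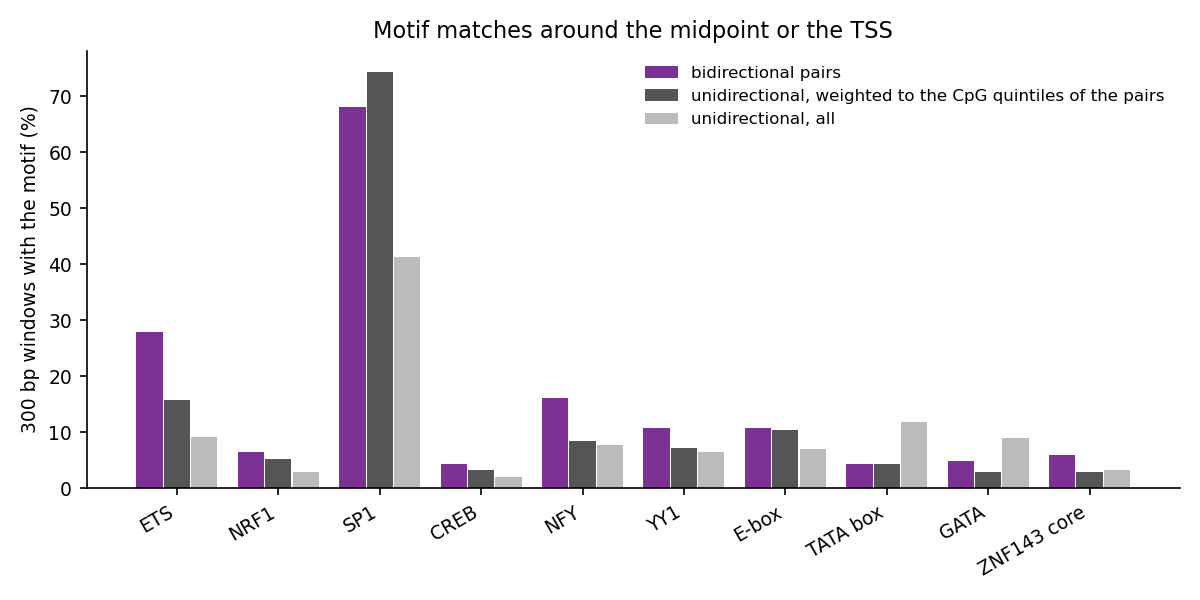
Percent of 300-bp windows that hold each of 10 short motifs on either strand, for 755 pairs, for unidirectional promoters weighted to the CpG quintiles of the pairs and for all unidirectional promoters. ETS letters stand at 27.9, 15.7 and 9.21%, whereas the SP1 letters stand at 68.1, 74.4 and 41.3%. The weighted bars leave out the 2 lowest CpG quintiles, and the bars of pairs hold all 755.

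Few bidirectional promoters were open in 1 group of nuclei and closed in the others. No pair had a peak in both libraries of 1 group and in none of the other 4, beside 0.123% of all protein-coding promoters for Input, 0.251% for Myc and 0.0228% for PCM1. Cd3eap/Ppp1r13l, a subunit of RNA polymerase I and an inhibitor of p53, was the single pair absent from both libraries of 1 group alone, beside 0.725% of all promoters absent from PCM1 alone, 0.0273% from Input alone and 0.0365% from Myc alone. It had ranks of 81.4 and 49.4 in Input and 86.3 and 82.4 in Myc. The count of 1 pair that sets a group apart rises to between 2 and 8 when 1 library is left out. It is 6 without Input replicate 1 and 8 without Input replicate 2. The group that lost a library then rests on 1 library alone, which without Input replicate 2 is the deepest one. No share of all promoters was computed for these counts, so they are not read as a result about pairs. Without both PCM1 libraries the count is 0 for Input against Myc, beside 0.246 and 0.328% of all promoters. With 2 libraries per group these counts have no test.

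The rank of the peaks did differ with the group, and much of that was shared with other promoters. Of the 702 pairs with a peak in all 6 libraries, 333 (47.4%) ranked higher in both Myc libraries than in the other 4, beside 32.1% of all promoters, and 30 (4.27%) ranked lower, beside 4.04%. In PCM1, 18 pairs (2.56%) ranked above and 255 (36.3%) below, beside 2.09 and 34.5%. In Input, 25 pairs (3.56%) ranked above and 15 (2.14%) below, beside 4.61 and 1.46%. The median rank of all promoters in these libraries was also higher in Myc (93.9 and 93.9) than in PCM1 (88.6 and 88.1), and the PCM1 libraries were shallower, and the part of depth in these counts was not tested.

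A rank among the promoters that were open in all 6 libraries, a scale added after the data were seen, takes out the shift that all promoters share. On it, 228 pairs (32.5%) were higher and 97 (13.8%) lower in both Myc libraries, beside 19.7 and 19.4% of all promoters. In PCM1, 100 pairs (14.2%) were higher and 153 (21.8%) lower, beside 18.1 and 17%. In Input, 55 (7.83%) were higher and 91 (13.0%) lower, beside 9.17 and 9.23%. The median pair stood at 66.6 and 66.8 (Input), 69.9 and 70.5 (Myc) and 66.2 and 65.0 (PCM1) on this scale, where 50 is the middle of all promoters. Without both PCM1 libraries, of 709 pairs with a peak in the 4 libraries left, 320 (45.1%) were higher and 143 (20.2%) lower in both Myc libraries than in both Input libraries, beside 29.6 and 28.7% of all promoters. On the rank among all peaks these were 359 (50.6%) and 49 (6.91%), beside 33.3 and 8.53%. The groups differ in antibody, in depth and, by their labels, in genotype, which the Sun1 peaks put in doubt for PCM1, and these cannot be told apart.

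A few pairs moved far on this scale and are named after their values were seen. Palb2/Dctn5, a partner of the BRCA proteins and a dynactin subunit, was at 62.3 and 61.9 in Myc against 31.7 and 34.2 in Input and 36.3 and 18.2 in PCM1. Mrpl32/Psma2, a mitochondrial ribosomal protein and a proteasome subunit, was at 86.0 and 85.6 in Myc against 52.5 to 63.1 elsewhere. Gamt/Dazap1, with an enzyme of creatine synthesis, was lower in Myc, at 44.7 and 46.4 against 72.9 to 84.3 elsewhere. Sgsh/Slc26a11, with a lysosomal sulfamidase, was higher in PCM1, at 71.6 and 68.9 against 38.6 to 41.8. These are among the extremes of 702 pairs and carry no test.

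The 24 pairs with a peak in 1 to 5 libraries had low ranks in most of the libraries. Mdh1b/Fastkd2, Sox6/1110004F10Rik and Nt5c3b/Klhl10 had the largest ranges, counting a library without a peak as 0. Mdh1b/Fastkd2 stood at 84.5 and 75.5 in Input and 92.8 and 93.3 in Myc, with 23.9 in PCM1 replicate 2 and no peak in PCM1 replicate 1. Sox6/1110004F10Rik, with a transcription factor known for its part in muscle fibre type, stood at 88.9 in Input replicate 1, 92.6 and 89.6 in Myc and 51.4 in PCM1 replicate 1. Nt5c3b/Klhl10 had a peak in Input replicate 1 alone, at 91.4. The imprinted pairs Peg3/Usp29 and Sgce/Peg10 were in this class too, with peaks in 3 and 4 libraries and none in Input replicate 2 or PCM1 replicate 2. All of these pairs except Stap2/Mpnd had a peak in Input replicate 1, the deepest library. A missing peak means only that none was called, and the part of depth in the missing peaks was not tested.

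The 29 closed pairs were of several kinds. Fewer than 2 CpG per 100 bp were found in 16. Of all pairs, 0.795 and 2.25% lay in the 2 CpG quintiles below 1.998 per 100 bp. A gene model with a Gm or Rik name was in 10 of the 29, beside 78 of all 755 pairs. The 8 with the closest TSSs were Best1/Rab3il1, Rnf151/Rps2, 4930430F08Rik/1700017N19Rik, Dgcr2/Tssk2, Il11/Tmem190, Ccnt1/4930415O20Rik, Patl2/Terb2 and Zfp558/Mbd3l1, between 36 and 91 bp apart. Several of these genes are known from tissues other than heart, such as Best1 in the retinal pigment epithelium and Tssk2 and Rnf151 in testis. In 10 of the 29, a gene had a peak in all 6 libraries at the start of its principal transcript elsewhere. For Rps2 that start was 1994 bp away with a rank up to 98.2, for Ccnt1 3287 bp and 98.6, for Dgcr2 6869 bp and 98.3, for Rab3il1 16524 bp and 96.1, and for Smyd1, a methyltransferase of striated muscle, 59980 bp and 94.1. In 17 of the 29 neither gene had a peak at its principal start. Over all protein-coding genes, taken singly at the gene start, 53.8% had a peak in all 6 libraries and 34.7% in none. The shares at the principal starts of all pairs, counted in this way, were not computed. For the 10 pairs with an open principal start elsewhere, the annotated gene start that made the pair is not the start that was open in these nuclei.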

How the data were processed

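Omni-ATAC-Seq reads of 6 libraries (Input, Myc and PCM1, 2 libraries each) were processed by the authors, who used fastq-mcf for trimming and Bowtie2 2.3.3.1 for mapping to mm10, marked duplicates with Picard 2.2.1, removed blacklisted regions with bedtools 2.7.1, shifted the alignments for the Tn5 transposase and ran MACS2 2.1.0.20160309 on every library separately at a q-value threshold of 0.05. In the peak lists the authors deposited, the −log10 values are MACS2's −log10 p-value and −log10 q-value at the summit, the fold is the enrichment of the pileup over the local background, and the score is the −log10 q-value rescaled to a whole number. The score was not used further. The pileup and background, and from them the relative depth, follow from the fold and the p-value, and at least 99.999% of the pileups came out whole within 0.02. A weak site is more easily missed in a shallow library.

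Gene starts were taken from GENCODE M21 on GRCm38, no peak ran past the end of a chromosome of that build, and an overlap of 1 bp with a peak counted. CpG density was counted over 500 bp to either side of the midpoint or TSS. Differences between promoter classes were computed within each library, averaged, and tested by a two-sided exact permutation test over the signs of the 6 library differences, with Benjamini-Hochberg adjustment over 9 results. No test between groups was made, as each has 2 libraries. Quintiles with under 20 regions of either class were left out. Computations used Python 3.11.15, numpy 2.4.6, scipy 1.17.1 and pandas 2.3.3, plots matplotlib 3.10.9, and the code was tested on simulated data. The computed alternatives were other thresholds, region lengths, gene starts, classes, rank scales and left-out libraries.

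The pairs, gene lists and tests were chosen with earlier results of these data known. Pairs are named by fixed rules: well-known pairs, pairs with heart, matrix or DNA repair genes, the 5 highest mean ranks, the 8 closest pairs without a peak, pairs of 1 group, extremes of length and range, and histone pairs. Examples from other lists and the imprinted pairs were chosen after their values were seen. The sequences shown were cut to 15 bases beyond each TSS in place of the 300 bp planned. Reads, fragment lengths and signal tracks were not analysed here.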

Additional observations from a re-analysis of the deposited data

How the results depend on the processing

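Of 94 recomputed differences over all 6 libraries, 91 kept their direction and an exact permutation p of 0.03125, and the other 3 concern the share with more than 1 peak. It was 0.328 points with regions of the same length (exact permutation p = 0.250, higher in 3 of 6 libraries), 0.675 points with the unidirectional region extended upstream (p = 0.125 by the same exact test, 5 of 6), and −0.311 points for pairs at most 500 bp apart (p = 0.406 by the same exact test, 2 of 6). Each of these settings narrows the gap in region length. The share with a peak exceeded that of unidirectional promoters by 15.6 points within quintiles of GC content in place of CpG density.

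Leaving out 1 library in turn cannot give an exact permutation p below 0.0625. The differences then ranged from 41.4 to 42.3 points for the share with a peak, 6.92 to 7.73 at equal CpG content, 6.59 to 7.14 for the rank percentile, 4.43 to 4.93 for the rank at equal CpG content, 111.8 to 114.3 bp for the length, 1.12 to 1.63 points for more than 1 peak, 48.3 to 49.8 for summits between the TSSs, 19.6 to 20.999 for more than 1 peak by TSS distance and 12.9 to 13.6 against genes with a divergent noncoding gene. Without both PCM1 libraries, whose labels the Sun1 peaks go against, the same differences were 41.0, 6.43, 6.20, 4.10, 114, 1.05, 50.7, 20.6 and 12.5 in that order, all with an exact permutation p of 0.125, the smallest for 4 libraries.

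The number of pairs with a peak in all libraries left was 702 to 705 when 1 library was left out. The number of pairs that set 1 group apart from the others was 1 with all libraries. It was 2 to 8 when 1 library was left out, where the reduced group rests on 1 library alone. With the strongest 75336 peaks of each library it was 2, and 4 when the summit had to lie in the region. It was 0 without both PCM1 libraries, a setting added after the data were seen. The share of all promoters was computed only with all libraries and without both PCM1 libraries. No paired analysis was possible because each difference lies within 1 library, so the replicate number cannot act as a block, and no groups were compared by a test.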
